A study of Mus musculus with 6 samples.

Results

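The genes described here are 7 secreted ligands that act on blood and lymph vessels: Prok1, Vegfa, Vegfb, Vegfc, Pgf, Angpt1 and Angpt2, out of 52550 genes listed in the deposited table. They were chosen by the TPM values of Prok1, which rose strongly and evenly at E18.5, and the other 6 joined it by family name, as VEGF and angiopoietin ligands. The rise of Prok1 is therefore given as a description with no test. The samples are GFP-positive cells sorted out of embryonic livers of Sox9-GFP mice (CD-1 strain), whose GFP reports activity of the Sox9 gene, at E16.5 or E18.5 (embryonic days 16 and 18 in the sample labels). Blood cells carrying lineage antigens had been depleted with magnetic beads before the sort. No group received a treatment or carried another allele, and age is the only difference between the stages that the sample labels give. Each stage had 3 libraries, lettered A, B and C, and each library came from pooled livers, so the spread between libraries is that between pools. Values are TPM, transcript levels corrected for gene length and scaled to the same total in every library.

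Endothelial cells line the vessels and carry the receptors for most of these proteins. VEGF-A binds the receptors Flt1 and Kdr and drives the growth and permeability of blood vessels, VEGF-B and placental growth factor (Pgf) bind Flt1, and VEGF-C acts on Flt4 to promote lymphatic growth. Angiopoietin-1 activates the receptor Tek and stabilises vessels, whereas angiopoietin-2 competes with it in many settings. Prok1 encodes prokineticin 1, also called endocrine gland-derived VEGF, a small secreted protein that is unrelated to the VEGFs in sequence and acts through the G protein-coupled receptors Prokr1 and Prokr2. In the fetal liver, bile ducts form beside the portal vein, and developing cholangiocytes are known to release VEGF-A while the arteries around the ducts are being built.

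Reads could be recovered from the TPM values for 49583 of the 52550 genes. Over these genes the 6 libraries held between 13093937 and 26206374 reads, and by this count every E18.5 library was shallower than every E16.5 library. The sorted cells carried biliary transcripts at both stages, and the sum of 10 biliary marker genes ranged from 928 to 2837 TPM at E16.5 and from 8583 to 14642 TPM at E18.5. They also carried many hepatoblast transcripts, whose sum over 10 genes ranged from 161059 to 202263 TPM at E16.5 and from 37154 to 87051 TPM at E18.5. Replicate C at E16.5 had the lowest biliary sum and the highest hepatoblast sum, and replicate B at E18.5 had the lowest hepatoblast sum. The sum of 10 megakaryocyte genes was 5804, 3341 and 9666 TPM in the E16.5 libraries A, B and C and 88.5, 767 and 216 TPM in those of E18.5. Transcripts of other cell types were thus present beside the biliary ones. None of the markers was at 0 in every library. In such bulk samples, fewer cells of a type and less RNA per cell cannot be told apart.

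Prok1 showed by far the largest stage difference of the ligands. Its level was 0.396, 0.633 and 0.735 TPM in the E16.5 libraries A, B and C, and 26.0, 17.0 and 21.7 TPM in those of E18.5. All 3 older libraries lay far above all 3 younger ones, and the mean went from 0.588 ± 0.174 to 21.6 ± 4.48 TPM (SD, n = 3 per stage), a 36.7-fold ratio of means. The difference of mean log2(TPM + 1) was 3.81 (SE 0.23), a scale that understates changes of genes under 1 TPM. In reads, the E16.5 values rest on 11, 16 and 19 reads and the E18.5 values on 576, 282 and 285. Counting intervals (95%, Clopper-Pearson) were far apart: that of the highest E16.5 library reached 1.15 TPM, and that of the lowest E18.5 library began at 15.1 TPM. These intervals cover counting error within a library only, and not the spread between pools. The reads carry no molecular identifiers, so copies of 1 molecule could not be set apart. Prok1 was thus detected at a low level in every E16.5 library. Among protein-coding genes its mean stood above 34.5% of the genes at E16.5 and above 67.7% at E18.5. Over all genes tested 4 rose by more on the log2 scale, 3 of them among the 13961 protein-coding genes.

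Prok1 (ENSMUSG00000070368.9) lies on the minus strand of chromosome 3 at chr3:107232797-107239707 in GRCm38. GENCODE lists a coding transcript of 813 bp that starts at 107239707 and a coding transcript of 3063 bp that starts at 107238652, each with 3 exons. The deposited values are per gene and do not tell these transcripts apart. The 250 bases before each start are shown because transcription of the gene that rose begins at their end, beside those of Vegfa, the other ligand that rose. They were taken from RefSeq promoter windows on GRCm38.p6 and run 5′ to 3′ on the minus strand, in the order chr3:107239708-107239957, chr3:107238653-107238902 and chr17:46032378-46032627. Capitals mark the TATA box TATAAA in the first and the GC box GGGCGG in the last.
Prok1 upstream of the outer start: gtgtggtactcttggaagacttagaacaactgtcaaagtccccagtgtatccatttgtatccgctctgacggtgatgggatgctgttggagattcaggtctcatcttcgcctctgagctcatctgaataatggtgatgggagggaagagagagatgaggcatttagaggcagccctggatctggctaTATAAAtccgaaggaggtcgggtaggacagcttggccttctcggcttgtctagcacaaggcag
Prok1 upstream of the inner start: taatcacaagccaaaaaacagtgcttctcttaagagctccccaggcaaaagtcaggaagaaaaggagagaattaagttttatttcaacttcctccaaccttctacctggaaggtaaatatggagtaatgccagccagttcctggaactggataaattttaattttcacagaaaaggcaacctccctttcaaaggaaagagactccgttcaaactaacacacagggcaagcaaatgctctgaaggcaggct
Vegfa upstream of the start: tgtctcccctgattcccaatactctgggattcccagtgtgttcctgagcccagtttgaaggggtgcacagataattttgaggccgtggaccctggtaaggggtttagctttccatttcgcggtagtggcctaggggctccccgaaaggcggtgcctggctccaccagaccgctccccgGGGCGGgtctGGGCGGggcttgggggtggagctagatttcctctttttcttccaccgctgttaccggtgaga

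Windows of 300 bases, which reach 50 bases past a start, were searched on both strands for 5 short motifs. The outer Prok1 window held a TATA box whose first base lies at -63 from the start, a motif found in 13.6% of the 32851 mouse windows. The inner Prok1 window held none of the motifs. The first Vegfa window held GC boxes at -72 and -62, a motif found in 35.7% of all windows. The cores of the hypoxia response element, ACGTG (19.6% of windows) and GCGTG (32.4%), and the SOX core ACAAT (31%) were in neither Prok1 window nor in that Vegfa window. A second Vegfa window, at a start inside the gene, held 1 match of each hypoxia core, at -211 and -218, and a GC box at -158. The Vegfb window held 4 GC boxes, the Vegfc window 2 and the first Pgf window 2. The hypoxia core GCGTG also lay at -237 and -81 in the Vegfb window and at -124 in the first Pgf window. G and C made up 50.7% and 43.7% of the Prok1 windows and 62% of the first Vegfa window, against a median of 52.7% over all windows. Windows were at hand for 5 of the 7 ligands, and Angpt1 and Angpt2 had none. These matches describe the letters in the windows and show nothing about binding.

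The 3′ end of the longer Prok1 transcript overlaps a gene on the opposite strand, A630076J17Rik, which ends at 107234723 and shares 1146 bp with Prok1, or 84.4% of its own exons. The shorter Prok1 transcript ends at 107235132, outside the overlap. A630076J17Rik was at 0.515, 0.661 and 0.0923 TPM at E16.5 and at 7.64, 5.04 and 5.98 TPM at E18.5. It was higher at E18.5, as Prok1 was (difference of mean log2(TPM + 1) 2.35, SE 0.29), on 6, 7 and 1 reads at E16.5 and 71, 35 and 33 reads at E18.5. Most of its exon bases are shared with Prok1, whose values chose the ligands, so its difference is a description with no test. Its reads came to 12.3%, 12.4% and 11.6% of those of Prok1 in the E18.5 libraries, and to 54.5%, 43.8% and 5.26% in the E16.5 libraries, where both counts were low. The kit was strand-specific, but whether the authors counted by strand is not stated in the sources used here, so reads of the pair may not be fully separated. Prok1 has 2095 bp of exon outside the overlap.

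**Figure D1:**
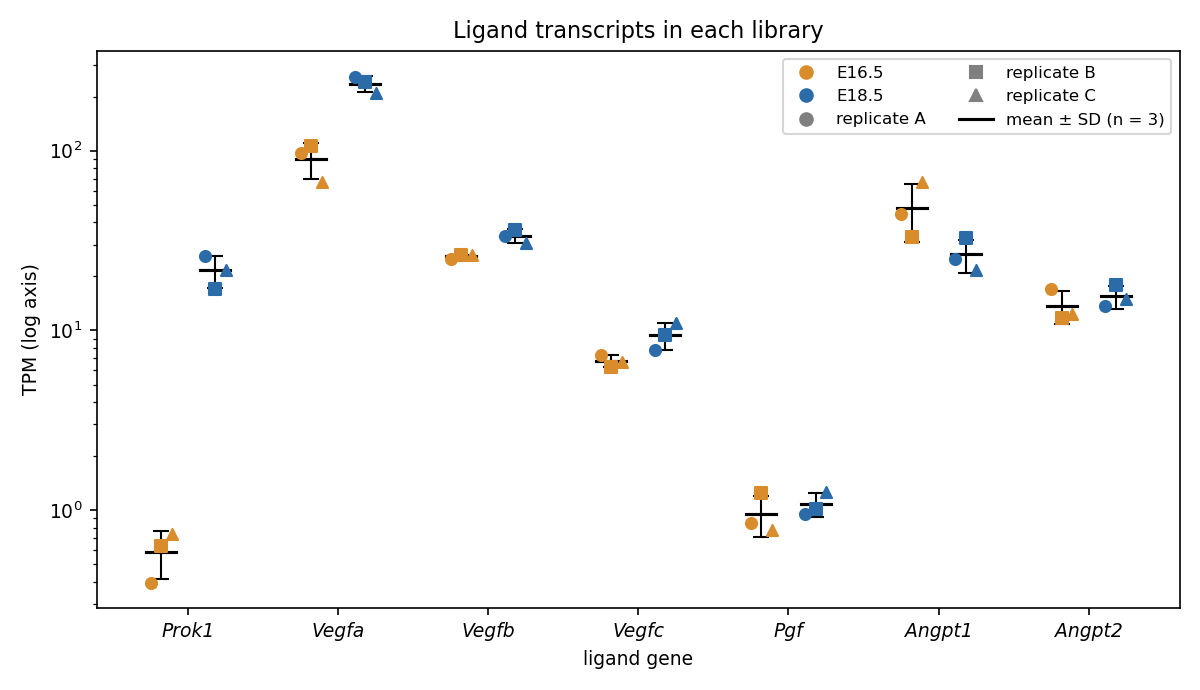
Levels of the 7 ligand genes in TPM on a log axis, 1 point per library (circle, square and triangle for replicates A, B and C), with the mean ± SD of 3 libraries. Prok1 moves from between 0.396 and 0.735 TPM at E16.5 to between 17.0 and 26.0 TPM at E18.5, and each of the other ligands moves by less.

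Vegfa (ENSMUSG00000023951.17, chr17:46016993-46032369, minus strand) was the most abundant ligand at both stages, and it rose. It measured 97.7, 106 and 66.7 TPM in the E16.5 libraries A, B and C and 258, 241 and 210 TPM in those of E18.5. The stages did not overlap, and replicate C was the lowest library of each. The mean went from 90.1 ± 20.7 to 236 ± 24.1 TPM (SD, n = 3), a 2.62-fold ratio of means, with a difference of mean log2(TPM + 1) of 1.40 (SE 0.19, limma adjusted p = 0.00890 over 22452 genes). Of the 6 ligands given a test, Vegfa alone passed the adjusted threshold of 0.05, beside 31.2% of all genes tested, with 26.0% called higher and 5.22% called lower at E18.5. The call held under all 16 alternatives tried, with adjusted p between 0.00333 and 0.0405, and the log2 difference was 1.20 without the E16.5 replicate C. Vegfa stood above 94.6% of protein-coding genes at E16.5 and above 98.5% at E18.5. Among protein-coding genes, 577 had a larger log2 rise than Vegfa.

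The genes as a whole shifted between the stages, and the ligands are to be read against that shift. The median difference of mean log2(TPM + 1) over all genes tested was 0.42, against 0.27 for the 6 ligands other than Prok1. Scaling by the median of ratios brought the median over all genes to 0.004, and the share of calls that were higher at E18.5 fell from 83.3% to 38.0%, or to 50.5% with quantile normalization. Under these scalings Prok1 kept differences of 3.49 and 3.50 and Vegfa 0.94 and 1.25. Leaving out the E18.5 replicate A cut the genes called from 7000 to 1472, and Vegfa was still among them (1.34, adjusted p = 0.0405).

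No other VEGF ligand passed the threshold. Vegfb (ENSMUSG00000024962.13, chr19:6982473-6987651, minus strand), a ligand of Flt1, was at 25.1, 26.2 and 26.2 TPM at E16.5 and at 33.6, 36.4 and 30.7 TPM at E18.5. The older libraries all lay above the younger ones, but the difference of mean log2(TPM + 1), 0.36 (SE 0.12), missed the threshold (limma adjusted p = 0.0555), and it was -0.087 with median-of-ratios scaling. Its spread at E16.5 was very small, with a coefficient of variation of 2.50% against a median of 16.0% over protein-coding genes.

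Vegfc (ENSMUSG00000031520.6, chr8:54077606-54187096, plus strand), the lymphatic growth factor, was at 7.29, 6.28 and 6.71 TPM at E16.5 and at 7.82, 9.43 and 11.0 TPM at E18.5. Here too the stages did not overlap and the difference, 0.41 (SE 0.19), did not pass (limma adjusted p = 0.124). It was -0.012 with quantile normalization. Pgf (ENSMUSG00000004791.7, chr12:85166635-85177790, minus strand) was near 1 TPM throughout, at 0.844, 1.24 and 0.777 TPM at E16.5 and 0.957, 1.01 and 1.27 TPM at E18.5, on 15 to 28 reads per library. The Pgf values overlapped, and the difference of 0.10 (SE 0.28, limma adjusted p = 0.807) was not distinguishable from 0 at this depth.

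Vegfa took a larger share of the VEGF transcripts at E18.5. The summed level of Vegfa, Vegfb, Vegfc, Vegfd and Pgf was 137, 143 and 107 TPM at E16.5 and 304, 293 and 264 TPM at E18.5. Vegfa made up 71.3%, 73.8% and 62.5% of that sum at E16.5 and 84.8%, 82.4% and 79.5% at E18.5, with no overlap between stages. The ratio of Vegfa to Vegfb went from between 2.55 and 4.04 to between 6.62 and 7.67. Scaling each library by 1 factor leaves these ratios as they are, whereas quantile normalization does not. They were picked with the values in view and were given no test.

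Neither angiopoietin passed the threshold. Angpt1 (ENSMUSG00000022309.8, chr15:42424723-42676977, minus strand), the vessel-stabilising ligand of Tek, was at 44.3, 33.0 and 66.6 TPM in the E16.5 libraries A, B and C and at 25.1, 32.6 and 21.8 TPM in those of E18.5. The stages were just apart, since the lowest E16.5 library only just exceeded the highest E18.5 library (33.0 against 32.6 TPM). The mean went from 48.0 ± 17.1 to 26.5 ± 5.54 TPM (SD, n = 3), and the difference of mean log2(TPM + 1) was -0.79 (SE 0.27, limma adjusted p = 0.0601). The call depended on settings: it passed with median-of-ratios scaling (-1.25, adjusted p = 0.0404) and without the E16.5 replicate B (-1.03, adjusted p = 0.0371), and the difference was -0.53 without the E16.5 replicate C (adjusted p = 0.130). The read numbers behind Angpt1 could not be recovered, and 14.2% of its exon bases are shared with Gm17473 on the opposite strand, which had at most 1.07 TPM. Megakaryocytes are also known to express Angpt1. Its order over the E16.5 libraries, C above A above B, was that of the megakaryocyte sum, and all 10 megakaryocyte genes fell, with a median log2 difference of -4.32 and a range from -4.90 to -3.83. Within E18.5 both were highest in replicate B, but Angpt1 was lower in C than in A while the megakaryocyte sum was 88.5 TPM in A and 216 TPM in C. The part of megakaryocytes in the Angpt1 level was not tested.

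Angpt2 (ENSMUSG00000031465.6, chr8:18690263-18741562, minus strand), which lies inside the gene Mcph1 on the other strand, was at 17.1, 11.8 and 12.3 TPM at E16.5 and at 13.6, 18.0 and 14.9 TPM at E18.5. The stages overlapped, and the difference was 0.18 (SE 0.19, limma adjusted p = 0.497), or -0.26 with median-of-ratios scaling and -0.22 with quantile normalization. The ratio of Angpt1 to Angpt2 was 2.59, 2.79 and 5.43 at E16.5 and 1.84, 1.81 and 1.46 at E18.5. It was lower in each E18.5 library than in any E16.5 library, with no test, since the ratio was chosen after the values had been seen. For 4 of the 6 ligands other than Prok1, 3 higher and 1 lower at E18.5, no library of a stage fell within the range of the other. The same held for 53.3% of all genes tested (45.0% higher and 8.30% lower).

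The order of the ligands by level also differed. At E16.5 it ran Vegfa, Angpt1, Vegfb, Angpt2, Vegfc, Pgf and Prok1, and no neighbours overlapped, although the lowest Vegfa library (66.7 TPM) only just exceeded the highest Angpt1 library (66.6 TPM). At E18.5 it ran Vegfa, Vegfb, Angpt1, Prok1, Angpt2, Vegfc and Pgf, and Vegfb, Angpt1, Prok1 and Angpt2 overlapped each with the next. Prok1 thus went from the last place to within the spread of Angpt1 and Angpt2. Per length, its level was 0.405%, 0.598% and 1.10% of that of Vegfa at E16.5 and 10.1%, 7.06% and 10.3% at E18.5.

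Prok1 and Vegfa rose together with the biliary genes, so their levels are also given relative to these. Sox9, the gene whose reporter was used for the sort, was at 157, 186 and 69.5 TPM at E16.5 and at 415, 466 and 353 TPM at E18.5. For every 100 TPM of Sox9 there were 62.0, 56.9 and 96.0 TPM of Vegfa at E16.5 and 62.1, 51.8 and 59.5 TPM at E18.5, and these ranges overlapped. For Prok1 the same ratio was 0.251, 0.340 and 1.06 at E16.5 and 6.26, 3.66 and 6.13 at E18.5, without overlap. Over the 9 biliary markers above 0 in every library, the ratio of Prok1 to the marker was higher at E18.5 without overlap for 8 and overlapped for 1. The ratio of Vegfa overlapped for 8 and was lower at E18.5 for 1, and the ratios of Angpt1 and Angpt2 were lower for all 9. None of the 10 biliary markers had a larger log2 rise than Prok1, and 6 had a larger one than Vegfa. Prok1 was chosen for its rise, so its counts beside the markers are descriptions with no test. A ligand that does not rise gives lower ratios to markers that rise. The share of all genes with such ratios was not computed. The difference for the 10 biliary markers had a median of 1.57 on the log2 scale, and 8 of them rose, beside 26.0% of all genes tested. Hepatoblast genes moved the other way, with 6 of 10 lower, 0 higher and a median of -1.24, beside 5.22% of all genes called lower. Of 10 mesenchymal genes 4 rose, with a median of 1.19, against the 26.0% of all genes called higher. Within E16.5, Prok1 was highest in replicate C, the library with the lowest biliary and the highest hepatoblast sum, and within E18.5 it was lowest in replicate B, the library with the highest biliary and the lowest hepatoblast sum. The part of cell mixture in the ligand levels was not tested.

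**Figure D2:**
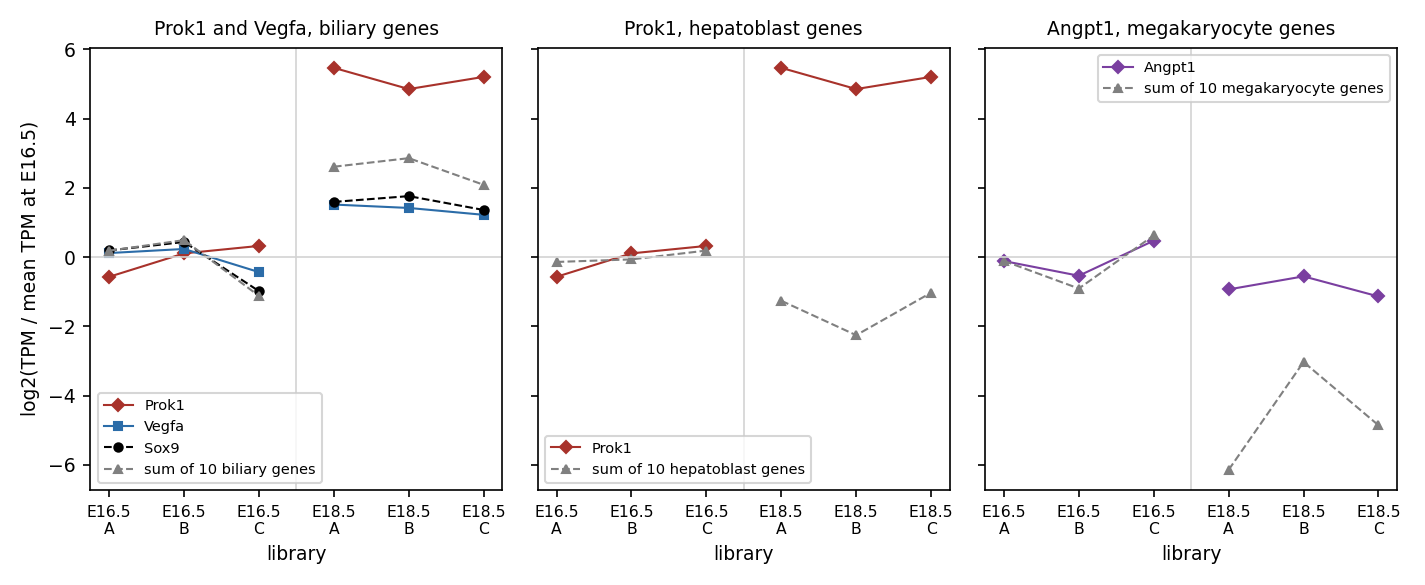
Prok1, Vegfa and Angpt1 beside Sox9 and the sums of 10 biliary, 10 hepatoblast and 10 megakaryocyte genes in each library, as log2 of the TPM over its mean at E16.5 (0 is the E16.5 mean, and lines only join the libraries of a stage). Vegfa stays close to Sox9, Prok1 lies above the biliary sum in all 3 E18.5 libraries, and Angpt1 has the E16.5 order of the megakaryocyte sum. Spp1 makes up most of the biliary sum and Alb most of the hepatoblast sum.

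The remaining ligands of these families were low. Vegfd, a lymphatic ligand like Vegfc, was at 6.10, 3.78 and 6.30 TPM at E16.5 and 3.89, 4.63 and 11.1 TPM at E18.5 (difference of mean log2(TPM + 1) 0.14, limma adjusted p = 0.784). Angpt4 stayed between 0.824 and 2.35 TPM (-0.02, limma adjusted p = 0.966). Prok2, the other prokineticin, was at 0 in all E16.5 libraries and at most 0.128 TPM at E18.5.

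None of the 8 receptor genes tested passed the threshold in either direction, where 26.0% of all genes were called higher and 5.22% lower. Their median difference on the log2 scale was 0.17, against 0.42 for all genes. Prokr1, a receptor of prokineticin 1, went from 1.80 ± 0.160 to 1.45 ± 0.417 TPM (SD, n = 3, -0.21, limma adjusted p = 0.570). Prokr2 stayed between 0.0738 and 0.269 TPM and was not tested. Both receptors of Prok1 were thus low in the libraries in which Prok1 was high. Kdr, the main signalling receptor of VEGF-A, ranged from 12.8 to 18.4 TPM at E16.5 and from 8.87 to 22.0 TPM at E18.5. Its difference was 0.13 (limma adjusted p = 0.780), and it turned negative with median-of-ratios scaling (-0.30) and quantile normalization (-0.25). The VEGF co-receptor Nrp1 (0.20, limma adjusted p = 0.604) and the angiopoietin receptor Tek (0.13, limma adjusted p = 0.750) also turned negative under both scalings. Flt4, the receptor of VEGF-C, went from 6.43 ± 3.22 to 12.3 ± 4.37 TPM (SD, n = 3) with overlapping libraries (0.89, limma adjusted p = 0.126). Flt1, which binds VEGF-A, VEGF-B and Pgf, went from 2.71 ± 1.15 to 6.02 ± 2.20 TPM (SD, n = 3), also with overlapping libraries (0.91, limma adjusted p = 0.0775).

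Tie1, an orphan receptor that pairs with Tek, had the largest difference of the receptors, at 29.1, 16.8 and 36.2 TPM at E16.5 and 7.52, 14.6 and 15.1 TPM at E18.5. The stages did not overlap, and the difference of -1.07 (SE 0.35) missed the threshold (limma adjusted p = 0.0534), but passed with both other scalings. Without the E16.5 replicate B it also passed (-1.37, limma adjusted p = 0.0340). Its E16.5 order was that of Angpt1 and of the megakaryocyte sum, whereas at E18.5 it was highest in replicate C and both of these in replicate B. The sum of 10 endothelial markers ranged from 121 to 199 TPM at E16.5 and from 124 to 235 TPM at E18.5, and 2 of the 10 markers rose, against 26.0% of all genes. Whether the receptor transcripts came from endothelial cells in the sort was not tested.

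The genes that sense oxygen and control VEGF-A through hypoxia-inducible factors were compared next. Of 9 such genes 4 rose and none fell, where 26.0% of all genes were called higher and 5.22% lower, and the median difference of mean log2(TPM + 1) was 0.34, below the 0.42 of all genes. Egln3, a prolyl hydroxylase that is itself induced by hypoxia, rose from 16.8 ± 2.59 to 33.6 ± 2.57 TPM (SD, n = 3, 0.97, limma adjusted p = 0.0110). Hif1a, the oxygen-regulated subunit, rose from 48.2 ± 5.67 to 73.2 ± 10.1 TPM (0.59, limma adjusted p = 0.0261). Its partner Arnt (0.54, limma adjusted p = 0.0148) and Vhl, which marks the subunit for degradation (0.70, limma adjusted p = 0.0253), rose by similar amounts. With median-of-ratios scaling only Egln3 of these 4 stayed past the threshold. Epas1 (0.03), Hif3a (0.01), Egln1 (0.34), Egln2 (0.15) and Hif1an (0.29) did not pass, with limma adjusted p from 0.0933 to 0.916. With median-of-ratios scaling Hif3a (-0.45, limma adjusted p = 0.0314) and Egln2 (-0.31, limma adjusted p = 0.0298) passed as lower, and with a replicate block Egln1 passed as higher (0.34, limma adjusted p = 0.0421).

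Of 10 textbook hypoxia targets other than Vegfa, 1 rose and 2 fell, with a median difference of 0.06, where 26.0% of all genes were called higher and 5.22% lower. Slc2a1, a glucose transporter, rose from 84.6 ± 3.62 to 133 ± 12.0 TPM (SD, n = 3, 0.64, limma adjusted p = 0.0123), a call lost with median-of-ratios scaling (0.18, adjusted p = 0.349). The glycolytic genes Ldha (-1.67, limma adjusted p = 0.0120) and Pgk1 (-0.65, limma adjusted p = 0.0157) fell. Ldha was at 806, 824 and 1077 TPM at E16.5 and 284, 188 and 412 TPM at E18.5. Pdk1 (0.05), Bnip3 (-0.58), Ndrg1 (-0.10) and P4ha1 (0.34) did not pass, with limma adjusted p from 0.0921 to 0.766. With median-of-ratios scaling Pdk1 passed as lower (-0.40, limma adjusted p = 0.0379). The Bnip3 difference was -0.15 without the E18.5 replicate B.

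Other ligands that act on vessels or on cells around them were looked at in the same way. Of 7 tested, 4 rose, against 26.0% of all genes, and the median difference was 0.92. Fgf1, a fibroblast growth factor, was at 7.38, 8.19 and 8.06 TPM at E16.5 and 30.4, 23.5 and 34.6 TPM at E18.5, with no overlap. Its difference of 1.77 (SE 0.18, limma adjusted p = 0.00669) exceeded that of Vegfa and stayed past the threshold under both other scalings. Hgf, hepatocyte growth factor, rose from 3.77 ± 1.78 to 11.1 ± 3.91 TPM (SD, n = 3, 1.37, limma adjusted p = 0.0305), and Pdgfa, which acts on mesenchymal cells, from 12.7 ± 4.43 to 24.0 ± 3.76 TPM (0.92, limma adjusted p = 0.0420). Cxcl12, a chemokine, rose by 0.44 (limma adjusted p = 0.0367), which is close to the shift of all genes, and its difference was -0.015 with median-of-ratios scaling. The calls of Hgf and Pdgfa were lost under both other scalings. The sum of 10 mesenchymal genes ranged from 108 to 250 TPM at E16.5 and from 243 to 687 TPM at E18.5. Within each stage, Hgf and Cxcl12 had the library order of that sum, and Fgf1 and Pdgfa did not. The part of mesenchymal cells in these levels was not tested. Hbegf (1.25, limma adjusted p = 0.0532) and Pdgfb (-0.62, limma adjusted p = 0.103) did not pass, but Hbegf did without the E18.5 replicate B (1.72, limma adjusted p = 0.0178) and Pdgfb without the E16.5 replicate B (-0.89, limma adjusted p = 0.0302). Pdgfb, like Angpt1, was highest in replicate C and lowest in replicate B at E16.5, at 33.8, 22.6 and 48.6 TPM in libraries A, B and C.

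The angiopoietin-like proteins, which resemble angiopoietins but do not bind Tek, had 5 members tested here, of which 1 rose and none fell, where 26.0% of all genes were called higher and 5.22% lower. Angptl2 went from 13.8 ± 1.81 to 26.0 ± 2.94 TPM (SD, n = 3, 0.87, limma adjusted p = 0.0137). Angptl4 was at -0.87 (limma adjusted p = 0.216), or -0.22 without the E18.5 replicate B. None of the 5 genes that process VEGF-C passed the threshold, among them the proprotein convertases Furin (0.28, limma adjusted p = 0.0868), Pcsk5 (-0.30, limma adjusted p = 0.218) and Pcsk7 (0.18, limma adjusted p = 0.309). Furin and Pcsk7 turned negative with median-of-ratios scaling, and Pcsk5 passed as lower with it (-0.73, limma adjusted p = 0.0311) and with quantile normalization (-0.70, limma adjusted p = 0.0317). Of the 46 tested genes in these pathway lists, 10 rose and 2 fell, where 26.0% of all genes were called higher and 5.22% lower, and their median difference was 0.24, against 0.42 for all genes. Median-of-ratios scaling left 2 higher, Egln3 and Fgf1, and 7 lower, and quantile normalization 3 higher and 4 lower.

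**Figure D3:**
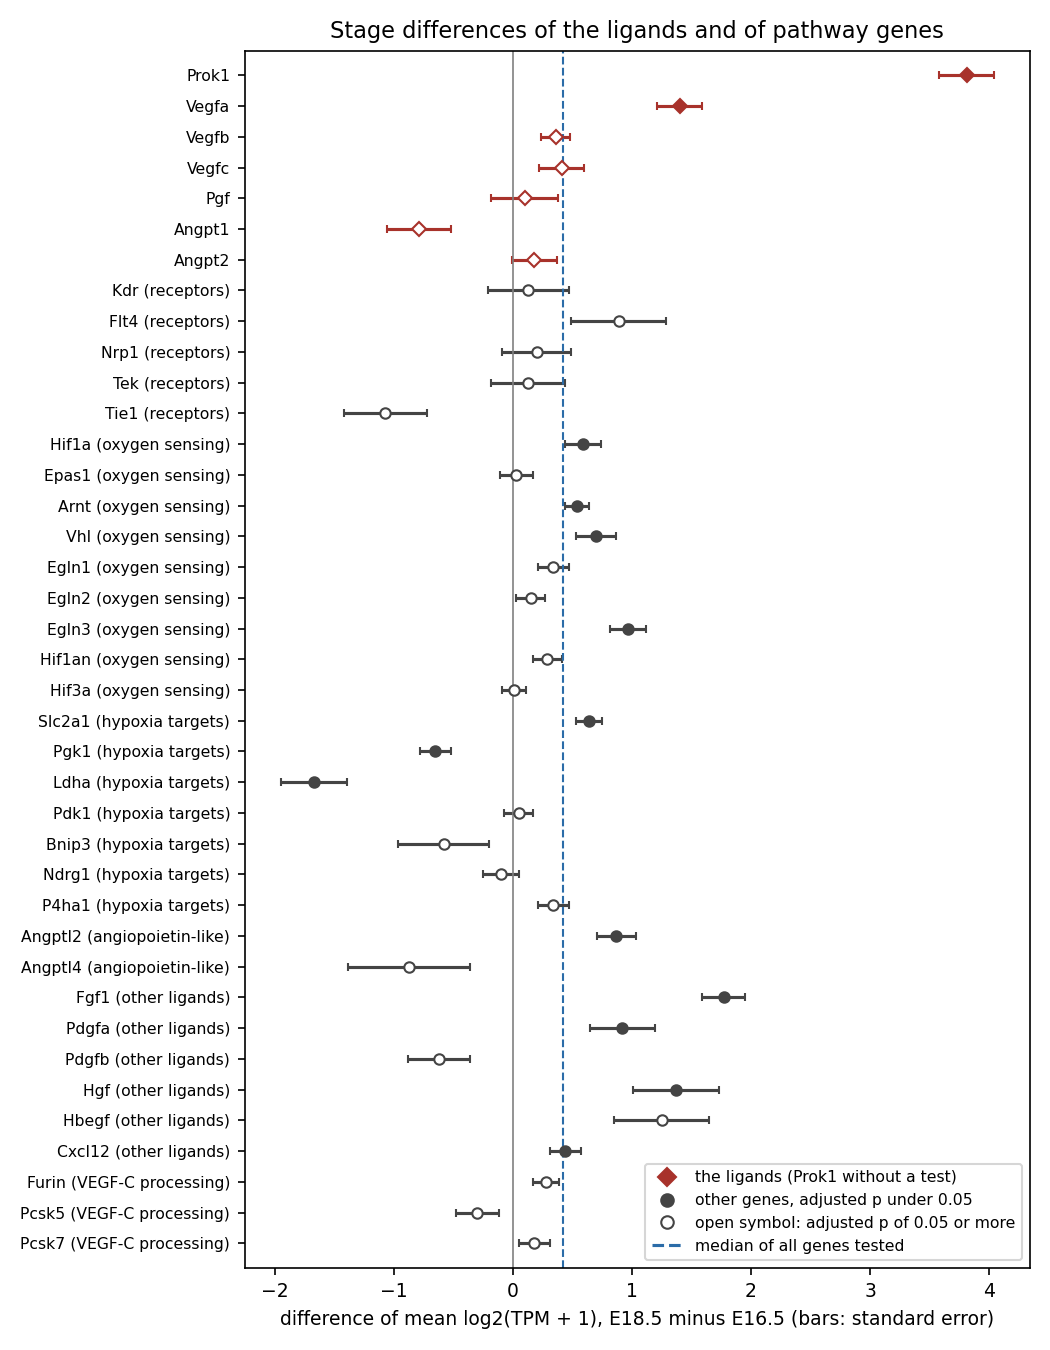
Difference of mean log2(TPM + 1), E18.5 minus E16.5, with its standard error, for the 7 ligands (diamonds) and 32 pathway genes (circles), filled where the limma adjusted p was under 0.05 (Prok1 was given no test), with a dashed line at the median of all genes tested (0.42). Prok1 at 3.81, Fgf1 at 1.77 and Vegfa at 1.40 lie farthest to the right, and Ldha at -1.67 farthest to the left.

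None of the 5 protein-coding genes whose profiles over the 6 libraries lay nearest to that of Prok1 was in the ligand lists. Likeness was the Euclidean distance between log2(TPM + 1) profiles centred on their means, over 13960 genes, and it is a description. G6pc, the catalytic subunit of glucose-6-phosphatase, was nearest (distance 1.08) and went from 6.39 ± 1.98 to 82.2 ± 39.9 TPM (SD, n = 3). Cyp4f14, a cytochrome P450, followed (1.16, from 1.26 ± 0.682 to 28.9 ± 7.37 TPM), and then Hsd3b6, a steroid dehydrogenase (1.25, from 0.185 ± 0.151 to 7.52 ± 1.67 TPM). Socs2, a feedback inhibitor of growth hormone signalling, lay at 1.27 (from 3.28 ± 1.63 to 44.3 ± 5.24 TPM), and Gbp9, a guanylate-binding protein, at 1.33 (from 5.44 ± 1.20 to 46.3 ± 7.34 TPM). Within E18.5 the libraries of G6pc and Hsd3b6 had their lowest value in replicate B, as Prok1 had, whereas Cyp4f14 and Socs2 had their highest there.

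**Figure D4:**
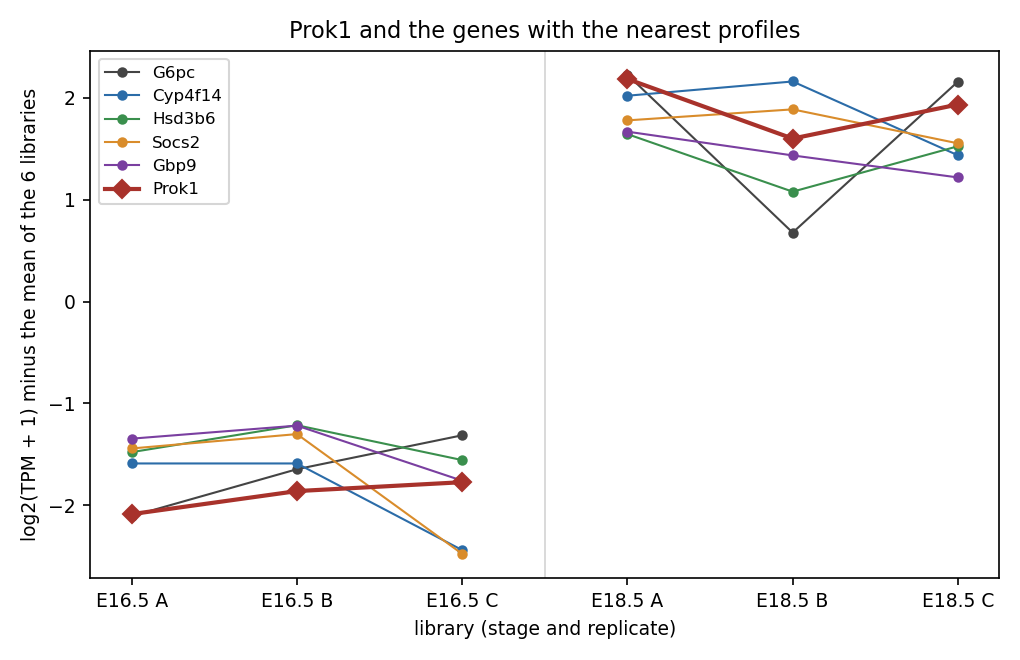
Profiles of Prok1 (diamonds) and its 5 nearest protein-coding genes over the 6 libraries, as log2(TPM + 1) minus each gene's mean over the libraries. All 6 genes are below their mean in the E16.5 libraries and above it in the E18.5 libraries, and G6pc and Prok1 share a dip in the E18.5 replicate B.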

How the data were processed

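RNA of GFP-positive cells from Sox9-GFP embryonic livers was sequenced in 3 libraries per stage, assigned to stages and replicates from the sample labels. Per the study's methods, the authors used Trimmomatic for trimming, HISAT2 2.1.0 for alignment on GRCm38 and HTSeq-count 0.5.4p3 with GENCODE vM15 for gene counts, and then turned these into TPM. The deposited TPM table lists 52550 genes, of which 52403 matched GENCODE vM21, the source of names, lengths and places used here.

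The stage comparison used log2(TPM + 1) of the 22452 genes whose mean reached 1 TPM, in limma 3.58.1 (R 4.3.3) with a mean-variance trend in eBayes, with two-sided tests and Benjamini-Hochberg adjustment over all of them. The labels do not say whether the pools came from separate litters, so p-values measure the spread between these samples only. An exact permutation test of 3 against 3 libraries cannot go below 0.1 and was not used. Reads were recovered as TPM times vM21 exon length over the value of 1 read (whole within 0.01 for 100% of 180057 values), for 49583 genes, Angpt1 not among them. They served for depth, exact (Clopper-Pearson) intervals (95%) and 1 alternative. No 2 libraries of a stage agreed within sampling noise, since their chi-square per degree of freedom was 17.1 or more. Steps were tested on simulated data with several random seeds, in which false calls took more than the nominal share of all calls. On average 26.6% of the simulated 2-fold changes and 94.7% of the 4-fold changes were called. Each simulation changed only 200 genes, as many up as down, whereas 31.2% of the genes tested here were called. The recovered and false shares therefore need not hold here, and a gene that did not pass may still differ.

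The ligands and all gene lists were chosen with earlier results of these data known. Named were all ligands, pathway genes past an adjusted p of 0.05 or at 10 TPM or more at either stage, and the 5 protein-coding genes nearest to Prok1. Of the marker lists, Sox9 and the biliary and hepatoblast genes with the highest mean were named. Members of the pathway lists outside that rule, named where they complete a family, were named after their values had been seen. Other list members are only counted, and 1 gene was left out of the lists and is not reported here. Alternatives were a pseudocount of 0.1, no filter, a minimum mean of 5 TPM, eBayes run robustly or with no trend, scaling by the median of ratios, by quantiles or after removing haemoglobin and small structural RNAs, the replicate letters as a block, limma voom on the recovered reads, and leaving out each library in turn. Motifs were searched in RefSeq promoter windows (GRCm38.p6) with Python 3.11.15.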

Additional observations from a re-analysis of the deposited data

How the results depend on the processing

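Against 7000 genes called, the calls numbered 4282 without a filter on low values (4160 of them among the 7000), 3818 with median-of-ratios scaling (2597 among them) and 3796 with quantile normalization (3053 among them), and between 1472 (without the E18.5 replicate A) and 5686 when 1 library was left out. The Prok1 difference was 4.99 with a pseudocount of 0.1, 3.49 with median-of-ratios scaling, 3.50 with quantile normalization, 5.07 with voom on recovered reads and 3.68 to 3.97 with 1 library left out. Vegfa stayed past the threshold under all 16 alternatives and ranged from 1.20 to 1.53 with 1 library left out. The remaining ligands, with 1 library left out, ranged from 0.30 to 0.43 (Vegfb), 0.31 to 0.53 (Vegfc), 0.032 to 0.14 (Pgf, in the 4 such fits in which it was tested), -1.03 to -0.53 (Angpt1) and 0.070 to 0.33 (Angpt2). Vegfb passed with a minimum mean of 5 TPM (0.36, limma adjusted p = 0.0430), and reversed with median-of-ratios scaling (-0.087). Vegfc reversed with quantile normalization (-0.012). With median-of-ratios scaling and quantile normalization, Pgf was -0.13 and -0.24 and Angpt2 -0.26 and -0.22. Angpt1 passed with that minimum (-0.79, limma adjusted p = 0.0492), with both scalings (-1.25 and -1.12) and after rescaling without haemoglobin and small structural RNA genes (-0.78, limma adjusted p = 0.0479), and over all its alternatives the adjusted p lay between 0.0371 and 0.140. Angpt1 has no value with voom, since its reads were not recovered. The causes were not tested.

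Of the pathway genes, 10 were higher, against 2 with median-of-ratios scaling, 3 with quantile normalization and 3 to 9 with 1 library left out, and 2 were lower, against 7, 4 and 2 to 4. Of 12 pathway genes called, 11 kept their direction in every alternative, all but Cxcl12, and 7 lost the call in at least 1 fit without a library. With median-of-ratios scaling and quantile normalization in that order, differences reversed to -0.30 and -0.25 (Kdr), -0.24 and -0.19 (Nrp1), -0.29 and -0.27 (Tek), -0.43 and -0.23 (Epas1), -0.31 and -0.064 (Egln2), -0.17 and -0.00015 (Hif1an), -0.45 and -0.098 (Hif3a), -0.40 and -0.32 (Pdk1), -0.11 and -0.027 (P4ha1) and -0.26 and -0.18 (Pcsk7). With median-of-ratios scaling alone they did so for Egln1 (-0.12), Cxcl12 (-0.015) and Furin (-0.18), and with voom for Kdr (-0.063), Tek (-0.060), Hif3a (-0.12) and Pdk1 (-0.085). With 1 library left out, ranges that crossed 0 were -0.084 to 0.52 (Kdr), -0.049 to 0.43 (Nrp1), -0.040 to 0.45 (Tek), -0.11 to 0.12 (Epas1), -0.026 to 0.060 (Hif3a) and up to 0.040 for Ndrg1. Whether the replicate letters pair the samples is not given by the labels, and 3 libraries per stage are too few to decide it. Same-letter deviations from the stage means correlated at -0.04, 0.08 and 0.14, and not every library correlated best with its own letter. With a replicate block 7314 genes were called, 6174 of them shared with the 7000, and no ligand gained or lost its call (Prok1 3.81, Vegfa 1.40). By the recovered reads every E18.5 library is shallower, and levels under about 1 TPM, such as Pgf and the E16.5 Prok1 values, rest on few reads.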

Other observations

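Within 200000 bp of Prok1 on chromosome 3, 8 other genes averaged 1 TPM or more. The overlapping A630076J17Rik was given no test. Of the rest only Slc16a4, a monocarboxylate transporter family gene 51523 bp away, was called higher (from 9.41 ± 1.32 to 15.7 ± 2.41 TPM, SD, n = 3, difference of mean log2(TPM + 1) 0.68, limma adjusted p = 0.0308). Over all genes tested, 26.0% were called higher and 5.22% lower. Lamtor5, 39151 bp away, differed by 0.43 (limma adjusted p = 0.108). The farther Kcna3, a potassium channel gene, and AI504432 were lower, with differences of -3.31 and -3.26 (limma adjusted p = 0.00976 and 0.00890), and both had the E16.5 order of the megakaryocyte sum, with 38.1, 20.4 and 56.8 TPM of Kcna3 in replicates A, B and C.

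Cym, the chymosin gene 11065 bp from Prok1, varied more between libraries than between stages. It was at 137, 66.2 and 1.42 TPM at E16.5 and at 8.52, 59.5 and 31.5 TPM at E18.5 (difference -0.09, SE 1.48, limma adjusted p = 0.967). The E16.5 replicate C, which had the lowest biliary sum, had the lowest Cym level of all 6 libraries. These neighbours were looked at after the Prok1 values had been seen, and no cause was tested.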
